A study of Caenorhabditis elegans with 2 samples.

Results

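Germ granule and small RNA pathway genes were examined for binding of the zinc finger protein ZTF-28 in whole Caenorhabditis elegans. The genes were taken from a list of 40 symbols. As rde-3 is another name of mut-2, the list holds 39 genes out of 19973 protein-coding genes on the nuclear chromosomes. They were ordered by role into 12 Argonautes, 8 polymerases and helicases (Dicer included), 10 other small RNA factors and 9 germ granule proteins. Sonicated chromatin was immunoprecipitated through the GFP tag from strain RW12281, in which TY1, EGFP and 3xFLAG were fused to ztf-28 at its own locus by CRISPR. Animals were synchronised by bleaching and starvation as L1 larvae and collected as young adults at 63 hours, in 2 biological replicates that form 1 group. No second genotype, no untagged strain and no control library was analysed here. The preparation was of whole worms, so germ line and soma cannot be told apart in any value below.

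Small RNA pathways of the worm work through Argonaute proteins, each loaded with a short guide RNA that pairs with a target transcript. Primary guides come from Dicer or from piRNA genes, and RNA-dependent RNA polymerases then copy the target into secondary guides, partly in perinuclear mutator foci. In germ cells most of these proteins sit in granules at the nuclear envelope, among them P granules built on PGL and GLH proteins and Z granules that hold ZNFX-1. Several Argonautes, such as HRDE-1 and WAGO-4, carry silencing from parents to progeny.

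A gene was called bound if the summit of a reproducible peak lay between 500 bp upstream and 200 bp downstream of any of its annotated transcript starts. Reproducible peaks were the 1086 peaks of the authors' conservative list. Its highest irreproducible discovery rate (IDR, low where both replicates rank a peak high and alike) was 0.00999. The longer ranked list holds 103094 peaks, passing or not. Signals are the authors' own value per peak on a scale not given in the sources used here. Each peak has 1 value for the pooled libraries and 1 for each replicate. Read depth is unknown, and intervals cover the counting of genes only. The median pooled signal was 94.8 in the conservative list and 23.9 in the ranked list, so most ranked peaks are weak.

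The bases around the strongest summit are shown first for 3 of the bound members and for the 3 members closest to the threshold from outside, since the presence of a short GC-rich word is one way in which they can be compared. Each run covers 50 bp to each side of the summit, in the direction of the gene, from the WBcel235 (ce11) sequence. Capitals mark the letters GCGC, explained with the counts below.
wago-4, bound, chrII:12919274-12919374, plus strand: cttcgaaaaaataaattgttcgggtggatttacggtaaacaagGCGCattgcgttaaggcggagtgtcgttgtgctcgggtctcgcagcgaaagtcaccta
hrde-1, bound, chrIII:4176363-4176463, minus strand: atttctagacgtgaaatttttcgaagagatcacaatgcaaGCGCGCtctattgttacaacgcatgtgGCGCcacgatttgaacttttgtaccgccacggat
mut-15, bound, chrV:15002270-15002370, plus strand: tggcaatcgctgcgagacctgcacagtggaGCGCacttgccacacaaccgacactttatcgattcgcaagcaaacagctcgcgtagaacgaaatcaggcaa
znfx-1, not bound, chrII:9215323-9215423, plus strand: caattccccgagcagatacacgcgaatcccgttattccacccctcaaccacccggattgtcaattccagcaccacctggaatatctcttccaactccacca
csr-1, not bound, chrIV:7958342-7958442, plus strand: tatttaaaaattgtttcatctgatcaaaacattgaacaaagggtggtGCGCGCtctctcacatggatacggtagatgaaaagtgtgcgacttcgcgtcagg
dcr-1, not bound, chrIII:8080116-8080216, minus strand: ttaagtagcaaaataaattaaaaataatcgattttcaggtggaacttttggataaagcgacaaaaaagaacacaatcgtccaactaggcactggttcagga

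Reproducible binding was found at 4 of the 39 genes, namely mut-15, wago-4, hrde-1 and glh-2. Only mut-15 was called at an IDR of at most 0.001 or in replicate 2 alone, mut-15 and glh-2 were called in replicate 1 alone, and hrde-1 was not called in the authors' optimal list, where its IDR was 0.0143. The share of 10.3% (95% Wilson interval 4.06 to 23.6) stands beside 2.99% of all protein-coding genes called by the same rule. The list was chosen with earlier results of these data known, so the interval is no test of this difference. The 4 genes belong to different steps of the pathways: a mutator complex component, an Argonaute of heritable silencing in the cytoplasm, its nuclear counterpart and a Vasa-like helicase of P granules. By role, 2 of 12 Argonautes, 0 of 8 polymerases and helicases, 1 of 10 other small RNA factors and 1 of 9 germ granule proteins were bound. The count of 0 among 8 genes allows a share of up to 37.5%, so these groups are too small to be ordered by it.

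A ranked peak of any strength lay in the window of 34 of the 39 genes (87.2%), against 62.7% of protein-coding genes. That difference was absent with a window of 250 bp upstream and 100 bp downstream, where 16 members (41%) and 41.1% of protein-coding genes had one. The strongest ranked peak per gene had a median pooled signal of 45.4 over these 34 genes, against 30.6 over the 12523 protein-coding genes that had one. In replicate 1 the median of the same peaks was 20.9 for the members and 15.9 for protein-coding genes, and in replicate 2 it was 23.4 and 16.5. Of the 34, 25 lay above the protein-coding median and 18 above the upper quartile of 43.3. The curve of the members therefore runs to the right of that of all genes over most of its range, while 5 members have no point on it.

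**Figure D1:**
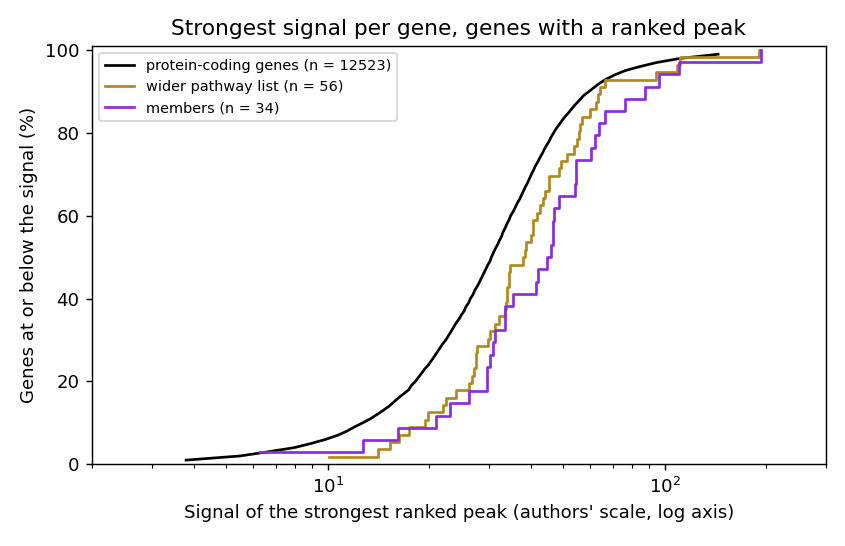
Cumulative share of genes (y axis, percent) at or below a given pooled signal of the strongest ranked peak in the start window (x axis, authors' scale, log axis), for 34 members, 56 genes of a wider pathway list and 12523 protein-coding genes, each with a ranked peak. The median of the members is at 45.4, that of the wider list at 38.3 and that of protein-coding genes at 30.6.

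Among the Argonautes, the strongest peak was at wago-4, whose product acts in the inheritance of silencing. Its peak ran from 12919174 to 12919473 on chromosome II, with a summit at -227 bp, a pooled signal of 110.5 and replicate signals of 53.1 and 54.3 (in the order replicate 1, replicate 2, as below). The replicates were nearly equal, and the IDR was 0.00129. The peak at hrde-1, the nuclear Argonaute of germ line silencing, ran from 4176263 to 4176562 on chromosome III with a summit at -254 bp. Its pooled signal was 87.5, with 39.8 and 48.1 in the replicates and an IDR of 0.00366. That pooled value is below the median of the conservative list, where hrde-1 stood at rank 696 of 1086 and wago-4 at rank 348.

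The remaining Argonautes had no reproducible peak. csr-1, whose protein binds guides against transcripts of the germ line, came closest, with a pooled signal of 66.5, replicates of 33.8 and 31.2 and an IDR of 0.0297. That summit lay at -221 bp from a downstream start of csr-1, in an intron of csr-1 that also lies in an intron of frpr-10. The peaks at ergo-1, the Argonaute of guides made in oocytes and embryos, reached 54.7 (28.5 and 28.8, IDR 0.0673), again in an intron and upstream of an internal start. At nrde-3, the nuclear Argonaute of the soma, the pooled value of 54.6 came from unequal replicates of 16.5 and 44.6, and the IDR was 0.283.

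The strongest peaks of the microRNA Argonautes alg-1 and alg-2 differed in level. alg-2 had 54.3 (20.5 and 30.6), in an intron upstream of an internal start. alg-1 had 29.7 (15.3 and 13.9), at 106 bp from its most upstream start, and the 15.3 is also carried by a weaker peak in its window. The order was reversed at the most upstream start of alg-2, where the peak had 16.4 (12.2 and 5.55). rde-1, which binds guides from double-stranded RNA taken up by the animal, had 45.9 (22.4 and 18.9), with a summit in an exon of its neighbour trpp-6. The lowest values were at the Piwi protein gene prg-1, 26.2 (13.7 and 3.56), and at wago-1, an Argonaute of P granules, 21.0 (21.3 and 7.31). Both lie below the protein-coding median and have a replicate 2 signal under that of replicate 1. alg-3 and alg-4, the paired Argonautes of spermatogenesis, were the only Argonautes of the list with no ranked peak in their windows.

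**Figure D2:**
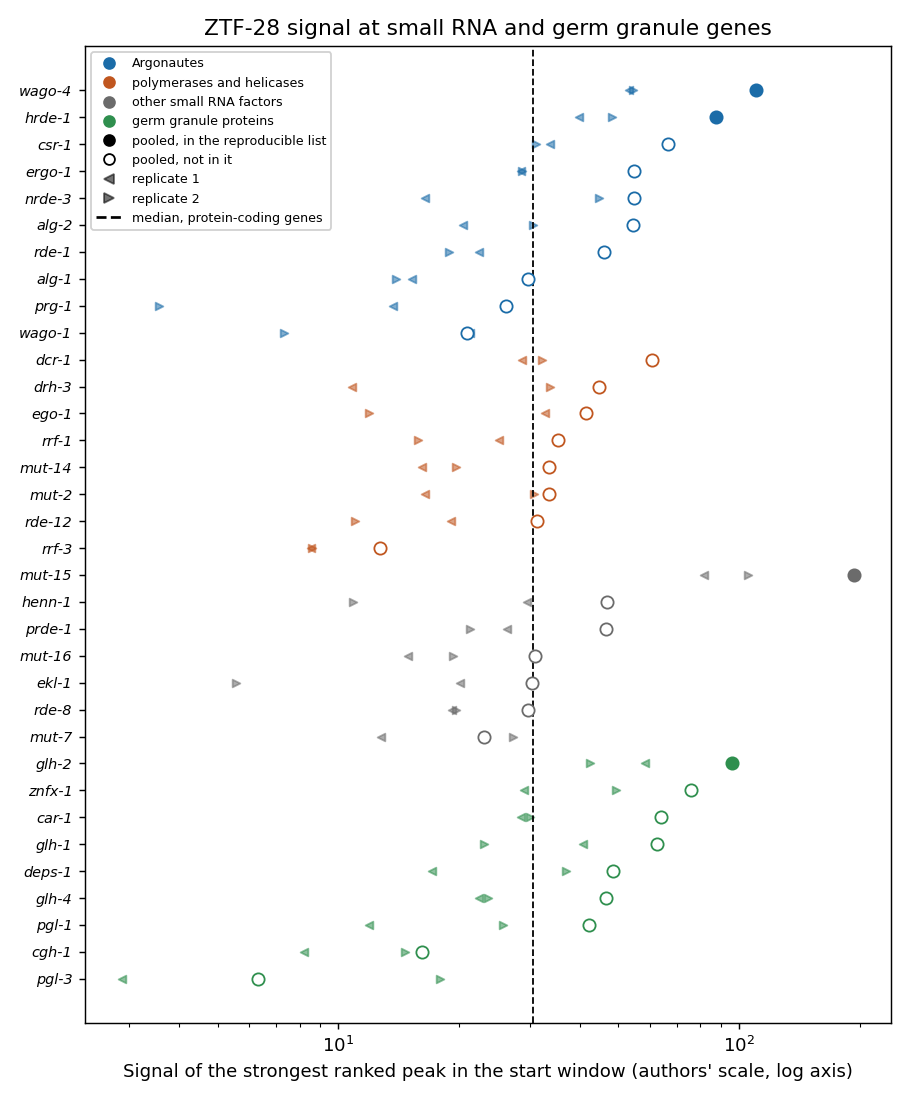
Signal of the strongest ranked peak in the start window (x axis, authors' scale, log axis) for the 34 members that have one (y axis), by role; circles are the pooled libraries, filled where the peak is in the reproducible list, and triangles are the replicates. The 4 filled circles lie between 87.5 and 193.5, to the right of every open circle, and the dashed line is the protein-coding median of 30.6.

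Polymerases and helicases had a median strongest pooled signal of 34.5, against 54.5 at Argonautes, 48.5 at germ granule proteins and 31.0 at other small RNA factors, and every one of the 8 had a ranked peak. The highest was at dcr-1, the worm's Dicer, with 60.6 (28.7 and 32.3, IDR 0.0457) in an exon of the gene, and a further peak of 51.7 (21.8 and 30.9) lay at -369 bp. Its replicates lay within 1.5-fold of each other at both peaks. At drh-3, a Dicer-related helicase needed for secondary guides, the pooled signal was 44.8, and at ego-1, the germ line RNA-dependent RNA polymerase, it was 41.4. The replicates went opposite ways at these genes, with 10.8 and 33.8 at drh-3 and 32.8 and 11.9 at ego-1. In each pair the lower value equals no peak in the ranked list of that replicate alone.

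The neighbouring polymerase gene rrf-1, which lies downstream of ego-1 on the same strand, had 35.4 (25.2 and 15.8) at 197 bp from an internal start near its far end, just inside that window. The helicase genes mut-14 and rde-12 had 33.6 and 31.4, and mut-2, which adds tails to RNAs targeted for silencing, had 33.5. The lowest of the group was rrf-3, the polymerase that starts the ERGO-1 pathway, with 12.7 (8.56 and 8.62) and a summit in an exon of emb-27. Only 3 of the 8 strongest summits were upstream of a start, against 68.7% over all protein-coding genes. Inside the gene itself lay 5 of 8, a location that was not counted over all protein-coding genes.

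Of the other small RNA factors, mut-15 had the highest signal of all members. MUT-15 is part of the mutator complex, in which secondary guides are made. The peak ran from 15002170 to 15002469 on chromosome V with a summit at -223 bp and a pooled signal of 193.5, with 81.8 and 105.4 in the replicates and an IDR of 0.000151. It was the only member peak in all of the thresholded lists, at rank 66 of 1086 by signal in the conservative list, rank 112 of 342 in that of replicate 1 alone and rank 64 of 411 in that of replicate 2 alone. Among the 12523 protein-coding genes with a ranked peak it stood at rank 49.

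No other member of this group came near it. henn-1, whose enzyme methylates the ends of small RNAs, had 46.9 (29.5 and 10.9), with a summit in an exon of fbxl-1. prde-1, needed to make piRNA precursors, had 46.6 (26.3 and 21.3). The mutator genes mut-16, the scaffold of mutator foci, and mut-7, an exonuclease, had 31.0 and 23.1, so the partners of mut-15 were near or below the protein-coding median. The Tudor protein gene ekl-1 had 30.4 (20.1 and 5.54) and the endonuclease gene rde-8 had 29.7 (19.2 and 19.7), the latter in an intron of its neighbour ZC477.3. rde-4, for a protein that binds double-stranded RNA, and the amplification factors rde-10 and rde-11 had no ranked peak in their windows.

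Germ granule proteins were led by glh-2, with a pooled signal of 96.0 (58.2 and 42.5, IDR 0.00211) at a peak on chromosome I from 6513727 to 6514026 and a summit at -51 bp. GLH-1, GLH-2 and GLH-4 are Vasa-like helicases of P granules. glh-1 also had its strongest summit at -51 bp, with a pooled signal of 62.3 (40.9 and 23.1), but an IDR of 0.0860, and glh-4 had 46.6 (22.5 and 23.6). In both glh-1 and glh-2 replicate 1 was the higher, but the 23.1 of glh-1 is also carried by a weaker peak at 153 bp. How far reads are shared between these related genes was not tested.

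At znfx-1, the Z granule helicase, a peak of 76.1 (29.1 and 49.2) had an IDR of 0.0168, the lowest among members outside the reproducible list, while the highest among those inside it was 0.00366 at hrde-1. It lay in an exon at 160 bp from an internal start, and another of 60.1 (29.5 and 32.2, IDR 0.0427) lay at 157 bp from a start near the beginning of the gene. car-1, for a protein of cytoplasmic RNA granules, had 63.7 (28.6 and 30), deps-1, a P granule factor, had 48.5 (17.1 and 37), and pgl-1 had 42.2 (11.9 and 25.8). The group also holds the lowest value of all members with a peak, at pgl-3. cgh-1, the worm's DDX6-like helicase, had 16.2 (8.19 and 14.7), and pgl-3, the partner of pgl-1 in P granules, had 6.31 (2.88 and 17.9), replicate values that a second weak peak in its window also carries.

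The order of the groups depended on which starts were counted. The Argonaute median was 36.6 instead of 54.5 when the most upstream protein-coding start of each gene alone was used, since csr-1, ergo-1 and alg-2 had their strongest peaks at internal starts. With the narrower window, the only ranked peak left among polymerases and helicases was a weaker one at rde-12, with 9.46 and an IDR of 0.761. No median of that group could therefore be compared. The median of other small RNA factors was 46.8 instead of 31.0, over mut-15, henn-1, prde-1 and mut-7 alone.

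All 4 bound members stand head to head with another gene, and each reproducible summit also lay in the start window of that neighbour. At mut-15 the neighbour was fib-1, which encodes fibrillarin, the methyltransferase of snoRNA particles. The 2 genes are 319 bp apart, and the summit was nearer to the start of fib-1, at -97 bp, than to that of mut-15. At hrde-1 it was C16C10.13, 280 bp away, with the summit at -27 bp from its start. At wago-4 it was F58G1.2, 540 bp away, with the summit at -314 bp, and at glh-2 it was C55B7.11, 97 bp away, with the summit at -47 bp. Only at wago-4 was the member's own start the nearer, while at glh-2 the distances differed by 4 bp. The peak lists cannot tell the genes of a pair apart.

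**Figure D3:**
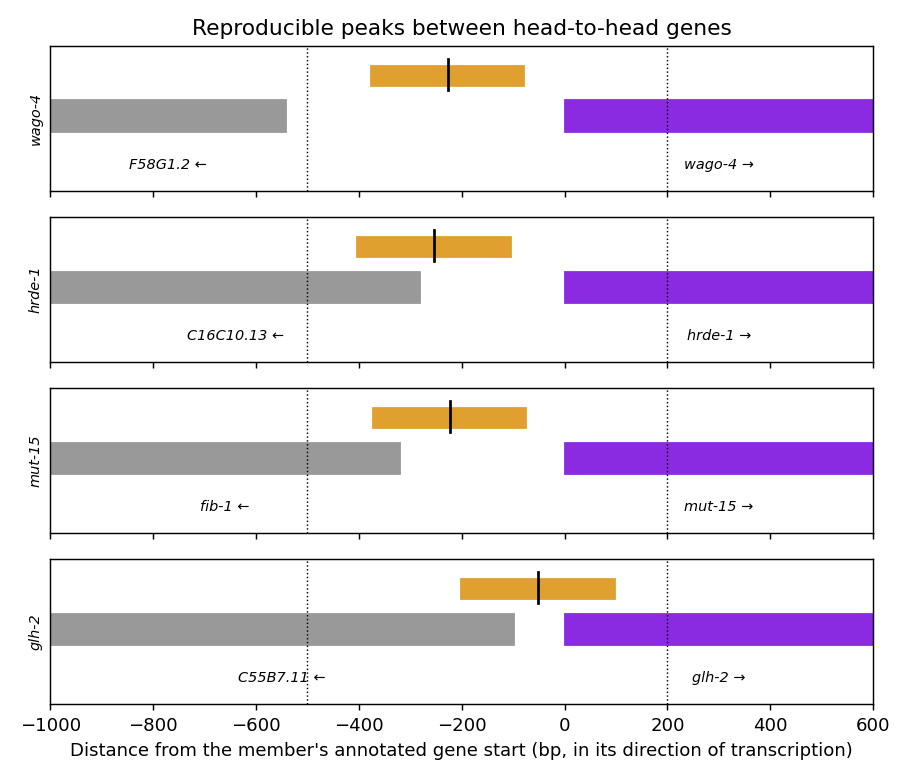
The 4 bound members (violet) and their head-to-head neighbours (grey), with the reproducible peak (orange) and its summit (black line), by distance from the member's annotated gene start in bp (x axis); dotted lines mark the window of 500 bp upstream to 200 bp downstream, and arrows give the direction of transcription. Every summit lies between the starts of a pair, at -227, -254, -223 and -51 bp from the start of wago-4, hrde-1, mut-15 and glh-2.

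Over all protein-coding genes, 46.2% of the 598 bound ones had their strongest reproducible summit in the window of another protein-coding gene as well. Of the members, 19 of 39 (48.7%) stand head to head with the next upstream gene at under 1000 bp, against 18.6% of protein-coding genes. Among these 19 members, 4 were bound, against 8.11% of all protein-coding genes placed in this way. Among the other 20 members 0 were bound, against 1.82% of other protein-coding genes. The median strongest pooled signal was 37.9 over the 16 head-to-head members with a ranked peak and 46.6 over the 18 others with one, whereas over all protein-coding genes it was 35.6 and 29.5. The part of gene arrangement in the count of bound members was not tested.

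Reproducible peaks near the members were also counted without regard to the windows. In all, 4 of the 39 genes had a reproducible summit within 1000 bp of a start and 8 within 5000 bp. The share of all protein-coding genes within these distances was not counted. The median distance to the nearest reproducible summit was 20491 bp for the members, against 35188 bp over all protein-coding genes. Of the unbound members, pgl-3 (-1640 bp), cgh-1 (2744 bp), ekl-1 (2858 bp) and ergo-1 (-4854 bp) were the nearest to one. At the other end, the nearest summit lay at -280343 bp from rde-10 and at -179766 bp from alg-3. Members were spread over the chromosomes, with 14 on chromosome I (1 bound, against 4.59% of protein-coding genes there), 4 on II (1 bound, 3.16%), 7 on III (1 bound, 4.81%), 5 on IV (0 bound, 3.41%), 7 on V (1 bound, 1.98%) and 2 on X (0 bound, 0.696%).

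**Figure D4:**
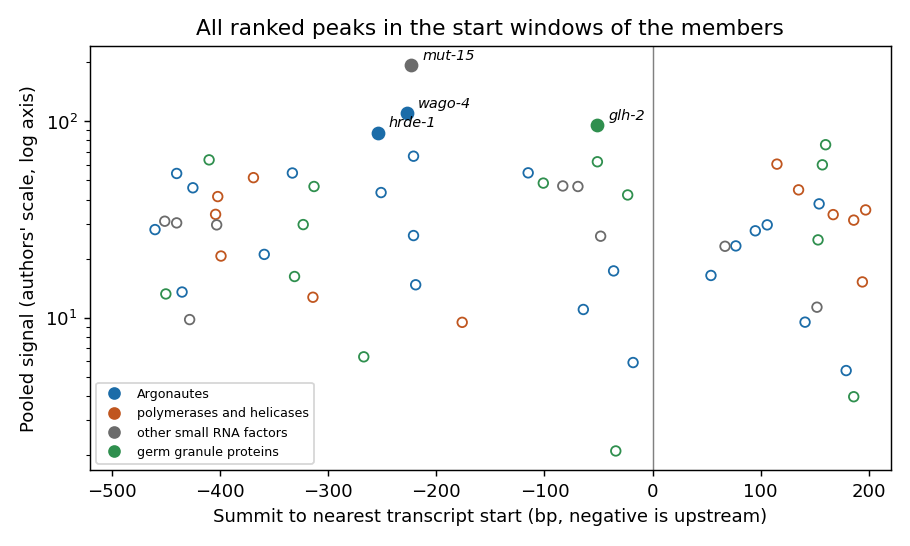
Distance from summit to the nearest transcript start (x axis, bp) and pooled signal (y axis, authors' scale, log axis) of the 60 ranked peaks in the windows of the members, by role; filled points are in the reproducible list. The 4 filled points lie upstream of the start, and the unfilled ones spread over the window with signals up to 76.1.

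The summits of the strongest peaks lay upstream of a start in 26 of 34 members (76.5%), with a median at -222 bp, against 68.7% and -125 bp over protein-coding genes. In the annotation, 17 of the 34 lay between protein-coding genes, 7 in an exon of the member, 5 in its intron and 5 in another gene alone. Among germ granule genes 7 of 9 lay between genes, and among polymerases and helicases 2 of 8. These locations were not counted over all protein-coding genes, so the shares have no background beside them. All 4 reproducible ones lay between genes.

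Peaks enter the reproducible list because both replicates rank them high and alike. The agreement of replicates at the bound members therefore follows from the choice of list. The log2 ratio of replicate 1 to replicate 2 was -0.03 at wago-4, -0.27 at hrde-1, -0.37 at mut-15 and 0.45 at glh-2, all within the range of -0.85 to 0.75 that holds the middle 95% of reproducible peaks. Of the 34 strongest peaks, 19 lay within that range and 15 outside it. Some unbound members had nearly equal replicates, such as rrf-3 at -0.01 and ergo-1 at -0.02. The extremes were -2.64 at pgl-3 and 1.94 at prg-1, and over all ranked peaks the middle 95% ran from -2.41 to 2.28. At rrf-3 and prg-1 neither value equals a peak in the ranked list of that replicate alone. The values at pgl-3 are also carried by a second weak peak. Replicate 1 was the higher in 13 of 34, so neither replicate was above the other throughout. The replicates differed by more than 2-fold at 11 of the 34, so the order of members with similar pooled signals, such as alg-1 and prg-1, cannot be read beyond that spread.

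**Figure D5:**
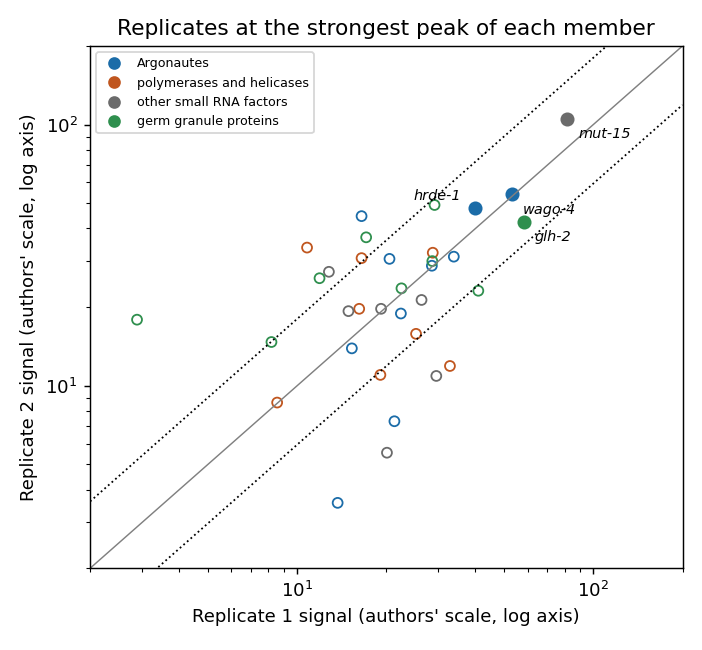
Signal in replicate 1 (x axis) and replicate 2 (y axis), both on the authors' scale and log axes, at the strongest ranked peak of each of 34 members, by role; filled points are reproducible. The grey line marks equality and the dotted lines the middle 95% of the log2 ratio at reproducible peaks, -0.85 to 0.75, which hold 19 members, the 4 filled ones included.

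Short words were counted within 50 bp of the summits, on both strands. Words of 8 bases were compared only if present at 30 or more reproducible summits. Of these, GCGCTCCA and GCGCGCGC were tied for the highest ratio of summits to flanks at 200 to 300 bp. Each was present at 31 of 1086 reproducible summits (2.85%), just over that minimum, and at 1 of 2172 flank windows (0.0460%). The ratio of each thus rests on 1 flank window. Among the members, GCGCTCCA was present at mut-15 alone, in the other orientation and overlapping the capitals shown for that gene, and GCGCGCGC at none of the 34. The 4 letters with which both begin, GCGC, were chosen after seeing this result. They occurred at all 4 bound members and at 8 of the 30 others with a ranked peak, against 46.6% of reproducible summits, 57.1% of those in protein-coding windows, 13.2% of ranked summits that did not pass and 11.2% of flanks. In the wider list described below they occurred at 2 of 4 bound genes and at 15 of 52 others with a ranked peak. In the sequences shown, znfx-1 and dcr-1 lack these letters and csr-1 has them. GTTCGA, the core of the B box of tRNA genes, was at 0 of the 4 bound members and 2 of the 30 others. It was at 12% of reproducible summits, 6.88% of those in protein-coding windows, 4.12% of ranked summits that did not pass and 4.28% of flanks. In the wider list it was at 1 of 4 bound genes and 4 of 52 others. The median GC content was 49.5% at reproducible summits and 39.6% at the other ranked summits, and the bound members lay between 44.6% at hrde-1 and 53.5% at mut-15. GC content did not always go with the word, since znfx-1 (52.5%) and rde-12 (48.5%) lack it, and of the bound genes of the wider list vig-1 (54.5%) lacks it and lotr-1 (37.6%) and pid-5 (40.6%) have it.

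A wider list of 72 other genes of these pathways had 4 bound genes (5.56%), against the 2.99% of protein-coding genes. These were vig-1, named for a Drosophila partner of Argonaute complexes, lotr-1, for a LOTUS domain protein of germ granules, and the piRNA factor genes pid-5 and tofu-1. The peak at vig-1 had a pooled signal of 189.9 (83.6 and 102.6) at -411 bp on chromosome II, close to the level at mut-15, but that summit was nearer to the start of a piRNA gene, 21ur-13751, at -107 bp. The signal was 110.9 (59 and 44) at lotr-1, 109.1 (58 and 56.4) at pid-5 and 94.4 (50.8 and 45.1) at tofu-1. Here too 3 of the 4 summits fell in the window of a head-to-head neighbour, namely the meiotic gene zhp-2 beside lotr-1, the cohesin gene coh-4 beside pid-5 and the helicase gene ruvb-1 beside tofu-1. The summit was nearer to the start of lotr-1 (-93 bp, against -463 bp for zhp-2) and of pid-5 (-58 bp, against -184 bp for coh-4). At tofu-1 it was nearer to that of ruvb-1 (-137 bp, against -208 bp for tofu-1).

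By role, the wider list had bound genes among 15 piRNA factors (2), 8 microRNA factors (1) and 16 granule proteins (1), and 0 among 8 further Argonautes, 11 siRNA factors, 9 genes of nuclear silencing and 5 of double-stranded RNA transport. A ranked peak was present at 56 of the 72, with a median strongest pooled signal of 38.3. The lowest median was that of double-stranded RNA transport, 19.8 over 3 genes, and the highest that of siRNA factors, 52.6 over 10 genes. The siRNA factors had a median window of 1402 bp, against 701 bp in each of the other groups of the wider list, so their strongest peak was taken over more sequence. No control library was analysed here, so a general affinity of open or transcribed chromatin for the immunoprecipitation was not tested for any of these genes.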

How the data were processed

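The deposited files are peak lists on assembly ce11, per the labels, whose positions fit the WBcel235 sequence. Names of the aligner and peak caller were not given in the sources used here. The signal and the score deposited for each peak are the authors' values. The ranked lists also hold the −log10 of the IDR, which the authors wrote for each peak and which was converted to the IDR. Of the 2 replicate values per peak, the first equals a peak of the ranked list of replicate 1 alone (same start and signal) at 1077 of 1086 reproducible peaks, and the second that of replicate 2 at 1082, with 0 crossed matches. Over all ranked peaks 58.5% and 57% were equal. Both values were equal for 26 of the 34 members with a ranked peak, and neither was for 3 (prg-1, rrf-3 and cgh-1). The replicate 2 value alone was unmatched at wago-1, ego-1 and ekl-1, and the replicate 1 value alone at drh-3 and pgl-1.

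Starts came from Ensembl release 115. Of 78 symbols of the wider list, 72 were found. Every member is named, with replicate values for bound and leading ones and for bound genes of the wider list. The members and lists were chosen with earlier results of these data known. With 1 group and no control, no significance test was made. The window rule was tested on simulated summits. A count of 0 was taken to allow 3 genes. Python 3.11.15, NumPy 2.4.6, pandas 2.3.3, SciPy 1.17.1 and matplotlib 3.10.9 were used.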

Additional observations from a re-analysis of the deposited data

How the results depend on the processing

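The number of bound members was 3 or 4 with the optimal list, other windows, the most upstream coding start alone, any overlap of the peak, peaks at or above the median signal and the 45 passing ranked peaks absent from the conservative list, against 4 as reported. hrde-1 was the member lost with the optimal list (IDR 0.0143 there), the window of 250 and 100 bp and the signal limit. With an IDR of at most 0.001, 1 member (mut-15) and 2 genes of the wider list (pid-5 and vig-1) were bound, beside 1.14% of protein-coding genes. Without replicate 1 or without replicate 2, in each case the list of the other replicate alone, 1 member (mut-15) and 2 members (mut-15 and glh-2) were bound, beside 1.36% and 1.17% of protein-coding genes, and 1 and 2 genes of the wider list. The median strongest signal of members was then 28.8 and 22.5, on the scale of single libraries, beside 20.7 and 19.8 for protein-coding genes. With the window of 250 and 100 bp, 16 members (41%) had a ranked peak instead of 34, beside 41.1% of protein-coding genes, and with that of 1000 and 200 bp, 8 genes of the wider list (11.1%) were bound instead of 4, beside 3.87% of protein-coding genes. Cause was not tested for these shifts. Medians by role moved by more than the replicate spread in 4 of 20 settings that used both replicates. All 8 from single replicates moved too, on their lower scale. That spread was 0.44 in log2, the median over members of the absolute log2 replicate ratio divided by the square root of 2. It describes single peaks and does not measure the variation of these medians. The set of genes with a ranked peak also changed with the window. No paired analysis was possible because there is a single group. With 2 replicates no outlier was looked for, and depth is unknown.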
